A study of Mus musculus with 3 samples.

Results

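The genes described here are 10 chosen for iron uptake, storage and export from the 34591 gene symbols of the table of counts. For uptake they are the transferrin receptor Tfrc, the iron transporter Slc11a2 and the reductase Steap3. For storage they are the ferritin subunits Fth1 and Ftl1, and for export the exporter Slc40a1 and the ferroxidase Cp. The others are the siderophore-binding Lcn2, and Aco1 and Ireb2, which encode the iron regulatory proteins. All 10 were chosen by symbol and role, and all were found. In the GENCODE M21 annotation they lie on chromosomes 16 (Tfrc), 15 (Slc11a2), 1 (Steap3 and Slc40a1), 19 (Fth1), 7 (Ftl1), 3 (Cp), 2 (Lcn2), 4 (Aco1) and 9 (Ireb2). The libraries are from 4T1, an established mouse mammary carcinoma cell line, with the genotype WISP2 OE, meaning that the matricellular gene WISP2 was over-expressed. There is 1 group of 3 messenger RNA libraries, called C1, C2 and C3 after their columns. Per the labels' protocols, vector packaged in 293FT cells was applied to tumour cells, which were kept under puromycin, but the constructs described are those of Wisp1, and the sources used here do not say whether the WISP2 cells were a clone, a pool or separate cultures. The empty-vector cells named in the design text were not analysed here, so no effect of WISP2 is estimated here.

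Cells take up iron mainly as iron-loaded transferrin, which the transferrin receptor carries into endosomes. There Steap3 reduces the iron and the divalent metal transporter Slc11a2 moves it to the cytosol, where it is used, stored in the ferritin shell of heavy (Fth1) and light (Ftl1) chains, or exported through ferroportin, the product of Slc40a1. The iron regulatory proteins made from Aco1 and Ireb2 bind hairpins called iron-responsive elements when iron is scarce: binding before the coding sequence blocks translation, as in ferritin messages, and binding after it protects the transferrin receptor message from decay. Carcinoma cells are known for high demand for iron, with much transferrin receptor and little ferroportin.

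The elements are shown first because they are what the regulatory proteins of this set bind. Annotated mouse transcripts were searched for a C, any 5 bases, the loop CAGTGN and 5 bases pairing with the first 5 (G with T allowed, at most 1 mispair), on the transcribed strand only. Of the 10 genes 5 held a match in an untranslated region, and Tfrc held 4. Each is printed 5′ to 3′ with the loop in capitals, from GENCODE M21 transcripts (build GRCm38).
Fth1: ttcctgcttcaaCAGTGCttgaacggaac
Ftl1: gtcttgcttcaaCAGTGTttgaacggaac
Slc40a1: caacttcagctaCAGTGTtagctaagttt
Tfrc, element 1: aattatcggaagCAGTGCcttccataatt
Tfrc, element 2: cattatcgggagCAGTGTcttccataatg
Tfrc, element 3: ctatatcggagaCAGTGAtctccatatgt
Tfrc, element 4: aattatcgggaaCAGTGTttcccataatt
Slc11a2: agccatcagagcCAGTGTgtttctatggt

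The matches in Fth1, Ftl1 and Slc40a1 began 132, 170 and 224 bases before the coding sequence, whereas those of Tfrc began 891, 1270, 1335 and 1382 bases into the region that follows it. The match in Slc11a2 began 40 bases into the region after its coding sequence, in 1 of its 6 coding transcripts. It was the only match with a mispair. The annotated coding sequence leaves out the stop codon, so the region after it, as counted here, starts with that codon. Messages of Slc11a2 with and without the element are known, and gene-level counts do not separate them. A match anywhere in an untranslated region was held by 1073 of 21877 coding genes (4.90%), a match in the 5′ region with all 5 pairs by 31 genes (0.142%), and 4 or more matches by 2 genes. Untranslated regions differ in length between genes, and a match is a description of sequence. Steap3, Cp, Lcn2, Ireb2 and Aco1 held none in the untranslated regions of these transcripts.

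**Figure D1:**
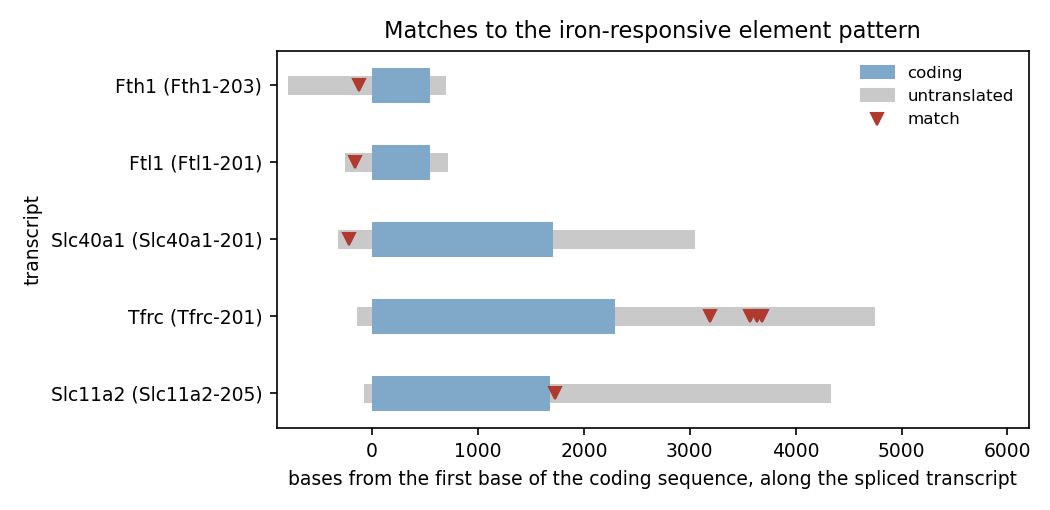
Positions of the pattern matches along 5 spliced transcripts, in bases from the first base of the coding sequence (x axis, 0 is the start). Triangles for Fth1, Ftl1 and Slc40a1 lie before the coding block, and those for Tfrc (4) and Slc11a2 (1) lie after it.

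Depth was 17630755 counts for C1, 67028365 for C2 and 47577315 for C3, so that a single count equalled 0.0567, 0.0149 and 0.0210 CPM (a count scaled to a column total of 1000000). Of the 10 genes 9 were at 1 CPM or more in every library, against 33.8% of all symbols in the table, and together the 10 took 0.319% ± 0.014 of all counts (SD, n = 3). Their median log2(CPM + 1) was 5.82, beside 3.35 over the 18797 genes with a count and 5.20 over the 11700 genes at 1 CPM or more. The epithelial markers fixed for 4T1 were all present (6 of 6 at 1 CPM or more, summed 3437 to 3743 CPM per library, Krt8 highest). No erythroid, hepatocyte, neutrophil, fibroblast or endothelial marker reached 1 CPM in any library. The haemoglobin genes Hba-a1, Hbb-b1 and Hbb-b2, the hepatocyte gene Alb and the neutrophil genes S100a9, Ly6g, Mpo and Elane had 0 counts. Hba-a2 had 2 counts in all, and Klf1, the highest erythroid marker, had 45. Of 9 macrophage markers Lyz2 and Cd68 reached it in every library, Emr1, Csf1r and Laptm5 reached it in C1 alone, and the list summed to 20.1, 9.83 and 10.2 CPM in C1, C2 and C3.

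Ferritin led the set. Fth1, the heavy chain with the ferroxidase centre, had 1636, 1659 and 1457 CPM in C1, C2 and C3, and 35 of all genes in the table were higher. The light chain gene Ftl1, whose product helps iron nucleate in the shell, had 766, 795 and 725 CPM. Both were lowest in C3, where the counting interval did not overlap that of either other library (Fth1 1447 to 1468 CPM in C3, against 1617 to 1655 in C1). The mean was 1584 ± 110 CPM for Fth1 and 762 ± 35.5 CPM for Ftl1 (SD, n = 3).

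Ferritin genes have processed copies in the genome, and the sources used here do not say how reads matching several genes were counted. Of the 50-base words in Ftl1 transcripts 50.9% also occur in transcripts of other genes, against 1.59% for Fth1 and at most 0.237% for the other 8 members. The copy Ftl2 held 151, 149 and 145 CPM, equal to 19.8%, 18.7% and 20.0% of the Ftl1 counts, while Fth-ps2 and Fthl17 had 0 counts. The level of Ftl1 is therefore uncertain. An antisense transcript without a defined type, Gm10252, covers 26.5% of its merged exon length in GENCODE M21, and the sources used here do not give the strand setting of the counting. For the same reason reads of opposite-strand neighbours cannot be set apart in 6.33% of the exon length of Slc11a2 (Gm5475) and 1.13% of that of Cp (Hps3).

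Among the uptake genes Tfrc stood far above its partners. It had 524, 487 and 507 CPM, higher than 97.8% of the genes at 1 CPM or more (506 ± 18.6 CPM, SD, n = 3). Slc11a2 had 42.9, 38.3 and 43.2 CPM, with C2 the lowest. Steap3, the ferrireductase of transferrin endosomes, had 18.2, 17.1 and 16.9 CPM, and all of its counting intervals overlapped (15.8 to 20.3 CPM over the 3 libraries). Thus the receptor was abundant in each library, and its partners were of low and middle rank among detected genes, of which 31.5% were lower than Steap3 and 54.3% lower than Slc11a2.

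Of the export genes Slc40a1 was low and Cp of middle rank. Slc40a1, encoding ferroportin, the only known iron exporter of mammalian cells, had 39, 172 and 106 counts, or 2.21, 2.57 and 2.23 CPM (2.34 ± 0.200 CPM, SD, n = 3), and only 4.91% of the genes at 1 CPM or more were lower. Its counting intervals overlapped in all pairs of libraries. Cp encodes ceruloplasmin, a copper ferroxidase that loads exported iron onto transferrin and is best known as a liver plasma protein. It had 21.6, 31.2 and 34.5 CPM in C1, C2 and C3, with intervals (19.4 to 23.8, 29.9 to 32.6 and 32.8 to 36.2 CPM) that did not overlap, and 44.2% of the detected genes were lower than its mean of 29.1 ± 6.72 CPM (SD, n = 3). C1, where Cp was lowest, is the library with the highest summed macrophage markers, although Ptprc of that list was lowest there. The part of other cells in the Cp level was not tested.

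Lcn2, which encodes lipocalin 2, a protein that binds iron-loaded siderophores and is made by neutrophils and inflamed epithelia, was the only member under 1 CPM in every library. It had 13, 12 and 40 counts, or 0.737, 0.179 and 0.841 CPM. C2, the deepest library, was lowest: its interval (0.0925 to 0.313 CPM) lay below those of C1 (0.393 to 1.26 CPM) and C3 (0.601 to 1.14 CPM). Of the neutrophil markers only S100a8 and Ltf had any count, at most 2 in a library.

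The genes of the regulatory proteins had similar CPM in each library. Ireb2, the gene of iron regulatory protein 2, which is degraded when iron is ample, had 175, 178 and 169 CPM. Aco1, whose product is the cytosolic aconitase when it carries an iron-sulfur cluster and iron regulatory protein 1 when it does not, had 73.8, 76.1 and 72.2 CPM. These genes had the lowest coefficients of variation of the set (2.64% for Ireb2 and 2.68% for Aco1), with C2 the highest and C3 the lowest library for both. The coefficient includes counting error, which weighs more on genes with fewer counts, such as Steap3 and Slc40a1. In the test against counting noise given below, Ireb2 passed, whereas Steap3 and Slc40a1 did not.

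**Figure D2:**
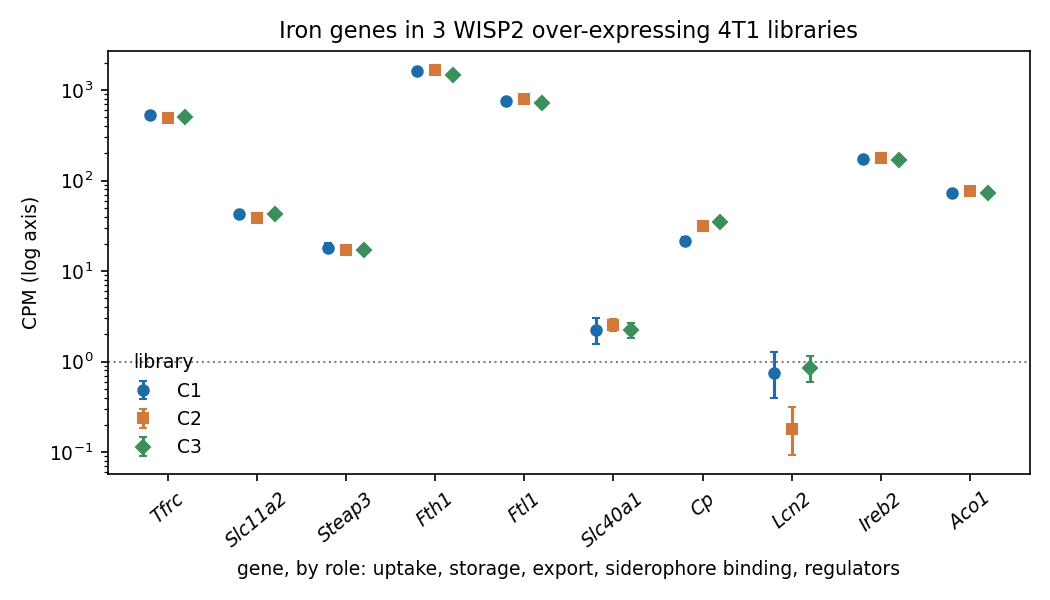
CPM (log axis) of the 10 genes in each library; points are libraries, bars are exact 95% binomial (Clopper-Pearson) intervals that cover counting error only, and the dotted line marks 1 CPM. Points span from 1659 CPM (Fth1 in C2) to 0.179 CPM (Lcn2 in C2), and only Cp and Lcn2 show libraries that are clearly apart at this scale.

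Counts grow with transcript length, so levels were set against each other as CPM per kilobase of merged exon. The order was Ftl1 (568 ± 26.5), Fth1 (457 ± 31.8), Tfrc (81.9 ± 3.01), Ireb2 (18.4 ± 0.484), Aco1 (16.5 ± 0.441), Slc11a2 (6.53 ± 0.432), Steap3 (3.05 ± 0.113), Cp (3.04 ± 0.702), Slc40a1 (0.259 ± 0.022) and Lcn2 (0.223 ± 0.136; all SD, n = 3). Neighbours in this order had ranges over libraries that did not overlap, except Steap3 and Cp, and Slc40a1 and Lcn2, whose levels were not separate. The largest steps were between Cp and Slc40a1 (11.7-fold), Fth1 and Tfrc (5.58-fold), and Tfrc and Ireb2 (4.46-fold). With the length of the longest transcript instead, 8 of 10 genes kept their place and Steap3 and Cp changed places. Among 11523 genes at 1 CPM or more with a length, 99.4% were below Ftl1, 99.2% below Fth1, 94.1% below Tfrc and 0.911% below Slc40a1 on this scale.

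**Figure D3:**
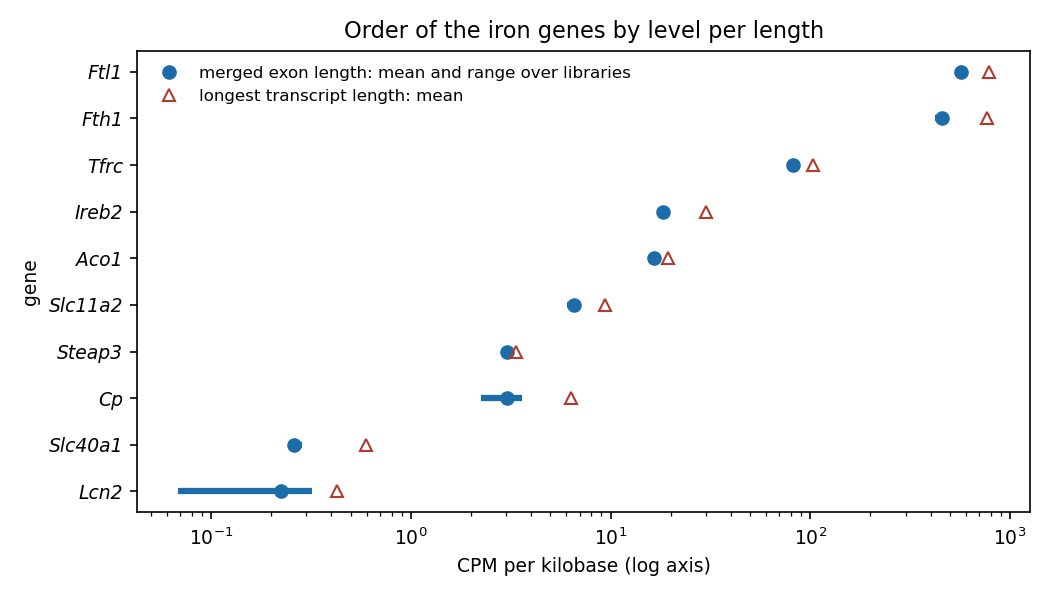
CPM per kilobase (log axis) of the 10 genes in order; filled circles are means and bars the range over 3 libraries with merged exon length, and open triangles are means with the length of the longest transcript. Bars are visible only for Cp and Lcn2, and the triangles of Ftl1 (787) and Fth1 (768) nearly coincide.

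Ratios within each library, corrected for merged exon length, set these roles side by side. The uptake receptor exceeded the exporter: Tfrc over Slc40a1 was 8.41, 8.11 and 8.36 on the log2 scale in C1, C2 and C3 (mean 8.29 ± 0.16, 314-fold), and 173-fold with the length of the longest transcript. Tfrc over Slc11a2 was 3.65 ± 0.058 (12.5-fold), and Steap3 over Slc11a2 was -1.10 ± 0.095, which puts Steap3 2.14-fold lower. Ferritin exceeded the receptor, with Tfrc over Fth1 at -2.48, -2.60 and -2.36 (mean -2.48 ± 0.12). Each of these ratios had the same sign in 3 of 3 libraries. No p-value is given, because the smallest that an exact sign-flip test (two-sided) of 3 values allows is 0.25.

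The ratios of the ferritin chains and of the regulators differed with the length used. Fth1 over Ftl1 was -0.32 ± 0.044 with merged exon length, -0.036 ± 0.044 with the longest transcript and 1.05 ± 0.044 without length correction, so which ferritin chain had more message per length is not settled by these counts. Aco1 over Ireb2 was -0.16 ± 0.011 (Ireb2 1.11-fold higher per length) and -0.64 with the longest transcript. Slc40a1 over Cp, the export pair, was -3.52 ± 0.34, which puts ferroportin 11.4-fold lower than ceruloplasmin per length, and 10.5-fold lower with the longest transcript.

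Some genes with roles next to those of the members were near or at 0. The ferroxidases Heph and Hephl1, which serve export in gut and other tissues, had 0 counts in every library, so a level of up to 0.170, 0.0448 and 0.0631 CPM in C1, C2 and C3 is allowed; Slc40a1 was at least 11.1-fold higher than Heph per length in each library, with a floor of 3 counts per library. Tfr2, the second transferrin receptor, a liver and erythroid gene, had 2 counts summed over libraries against 66031 for Tfrc, a ratio of 23146 per length (95% counting interval 6407 to 191124); both Tfr2 counts lay in C2, so without C2 there is no ratio, and without C3 it was 14689. Slc22a17, described as a lipocalin 2 receptor, had 1 count against 65 for Lcn2 (111.9 per length, counting interval 19.4 to 4488).

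The spread between libraries was tested across the 13026 genes that passed the low-count filter (edgeR's filterByExpr); 9 of the 10 members passed and Lcn2 did not. Against counting noise (Poisson dispersion test, Benjamini-Hochberg 0.05), 6 of the 9 varied, where 39.3% of all tested genes did: Fth1 (adjusted p = 1.23e-151), Ftl1 (4.53e-35), Cp (1.18e-14), Tfrc (1.15e-10), Slc11a2 (0.000274) and Ireb2 (0.0127). Aco1 (0.150), Slc40a1 (0.582) and Steap3 (0.694) did not pass. This test grows with the count, so the deeply counted ferritin genes pass on small differences: the highest library exceeded the lowest by 1.14-fold for Fth1, 1.10-fold for Ftl1 and 1.08-fold for Tfrc. Without C2, 3 of 10 members passed, where 13.8% of all tested genes did.

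Against genes of similar level (edgeR quasi-likelihood F test with Benjamini-Hochberg adjustment), 0 of 9 members passed, where 0.0691% of tested genes did, and 1 member, Cp, had an unadjusted p under 0.05, as did 671 of the 13026 genes tested. Its highest library exceeded its lowest by 1.60-fold, and its adjusted p was 0.215 in the edgeR test. DESeq2 marked Cp as a dispersion outlier (11.1 times the trend), where 0.479% of genes were so marked, and none of the other 9. Without C2 the edgeR test called Cp (adjusted p = 0.0126), without C1 or C3 it did not (0.998 and 0.369), and over these and the other settings run its adjusted p lay between 0.000175 and 0.998. Lcn2 entered only where the filter let it: it passed without the filter (edgeR adjusted p = 0.0267) and without C1 (0.0463), and did not pass without C2 (0.997).

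The members did not deviate in 1 direction as a set. Relative to each gene's mean on the log2(CPM + 1) scale, the median over the 9 genes at 1 CPM or more was 0.0088 in C1, 0.040 in C2 and -0.037 in C3, beside 0.0014, 0.0025 and -0.0034 over 11700 genes. C3 was the lowest library for 5 of the 9 (Steap3, Fth1, Ftl1, Ireb2 and Aco1) and C2 the highest for 5 (Fth1, Ftl1, Slc40a1, Ireb2 and Aco1), where C3 was lowest for 37.3% and C2 highest for 35.7% of all detected genes. Fth1 deviated by 0.049, 0.069 and -0.12 and Ftl1 by 0.0086, 0.063 and -0.071, while Tfrc deviated by 0.051, -0.054 and 0.0030 and Slc11a2 by 0.050, -0.11 and 0.059. Fth1 and Ftl1 were highest in C2, where Tfrc and Slc11a2 were lowest. For Fth1, however, the counting intervals of C2 (1649 to 1669 CPM) and C1 (1617 to 1655 CPM) overlapped. None of these genes passed the edgeR F test.

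**Figure D4:**
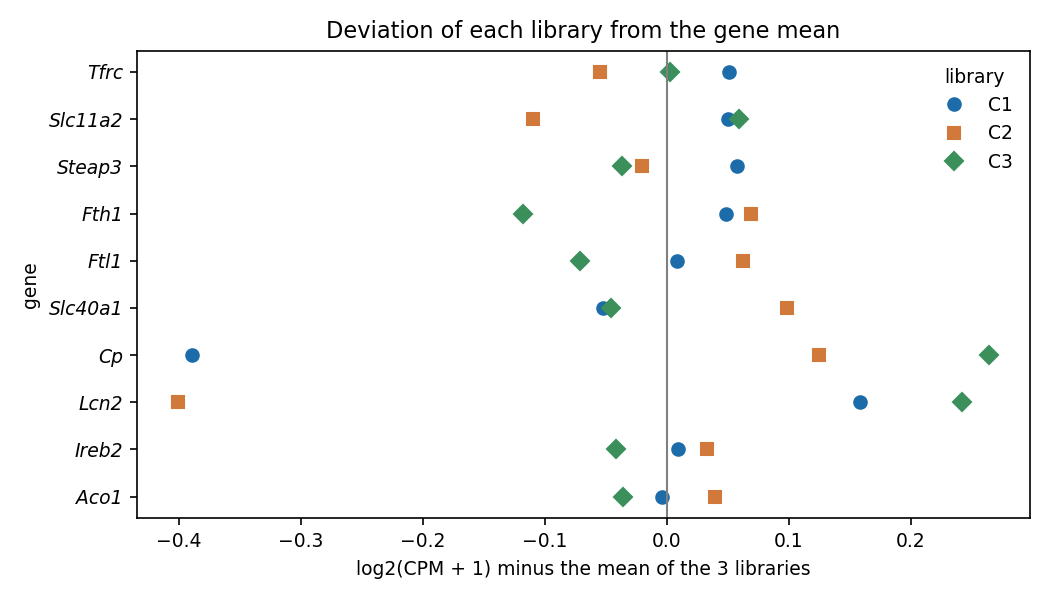
Each library's log2(CPM + 1) minus the mean of the 3 libraries, with 1 point per library and gene. Fth1 and Ftl1 have C3 at the low end, Tfrc and Slc11a2 have C2 at the low end, and the points of Cp (-0.39 to 0.26) and Lcn2 (-0.40 to 0.24) lie farthest apart.

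The genes whose deviations over the 3 libraries lay nearest to those of the 3 members with the widest range among the 9 at 1 CPM or more in every library (which leaves out Lcn2) were found by Euclidean distance among 9256 genes with a mean of 10 CPM or more. For Cp they were Apol9a (distance 0.0449), C1qtnf1 (0.0718), Ptprj, Akap13 and Postn (0.172), all lowest in C1. For Fth1 they were Gtpbp10 (0.00217), BC055324, G6pdx, Srxn1 and Fbxo33, all lowest in C3. For Slc11a2 they were Usp36 (0.000249), Rnpepl1, 2510039O18Rik and Tjap1, among others. With 3 libraries and this many genes, close matches are many, and the list is a description only.

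The rest of the pathway was listed by role. It held 89 different genes, all in the table (3 of them found there only under a synonym of the listed symbol). Of these 66 (74.2%) were at 1 CPM or more in every library and 10 had 0 counts. Over all symbols in the table the share at 1 CPM or more was 33.8%, to be set beside the list counts below too. Of the 69 that passed the filter, 34 (49.3%) varied beyond counting noise, against 39.3% of all genes tested, and 0 passed the edgeR F test, with 4 of 69 at an unadjusted p under 0.05, beside 671 of 13026 over all genes tested.

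Of the other uptake genes 6 of 14 reached 1 CPM in every library, where 33.8% of all symbols did. Steap2, a metalloreductase of the Steap3 family, had 252 ± 21.6 CPM, Lrp1, a scavenger receptor that takes up haem with hemopexin, 179 ± 13.8 CPM, and Slc39a14, a transporter of iron not bound to transferrin, 92.1 ± 0.594 CPM (SD, n = 3 each). On CPM per kilobase, Steap2 (20.8) stood above Steap3 (3.05). Trf, encoding transferrin itself, had 0 counts. None of the 3 genes for lipocalin reception or the siderophore enzyme Bdh2 reached 1 CPM (Bdh2 0.670 ± 0.097 CPM).

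Ferritin loading and turnover genes were abundant, with 7 of 8 at 1 CPM or more. The iron chaperones Pcbp2 and Pcbp1, which deliver iron to ferritin, had 463 ± 7.97 and 259 ± 4.27 CPM, and Skp1a, a subunit of the ubiquitin ligase with which Fbxl5 degrades iron regulatory protein 2, had 249.7 ± 11.1 CPM (SD, n = 3 each). Ftmt, mitochondrial ferritin, had 0 counts. Of the hepcidin axis, the systemic control of ferroportin, 4 of 10 were at 1 CPM or more: the receptors Neo1 (162 ± 2.68 CPM) and Bmpr1a (149.6 ± 6.33 CPM), Acvr1, and Fam132b (53.0 ± 2.81 CPM). Fam132b encodes erythroferrone, a hormone known from erythroblasts that lowers hepcidin. No erythroid marker reached 1 CPM in any library, the highest being Klf1 (0.397, 0.328 and 0.336 CPM in C1, C2 and C3). Hamp and Hamp2, the hepcidin genes, had 0 counts.

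Genes of mitochondrial iron import, iron-sulfur cluster assembly and haem handling were detected nearly throughout. All 19 genes of mitochondrial import and iron-sulfur cluster assembly reached 1 CPM, among them the chaperone Hspa9 (1061 ± 73.7 CPM) and Slc25a37, mitoferrin 1 (68.9 ± 2.63 CPM). So did all 9 of cytosolic cluster assembly, led by Ciapin1 (100.4 ± 2.07 CPM), Nubp1 (76.6 ± 1.37 CPM) and Mms19 (69.6 ± 1.88 CPM; SD, n = 3 throughout). Of haem synthesis 9 of 10 were detected, among them Cpox (99.5 ± 9.62 CPM) and Tspo (90.1 ± 6.35 CPM), while the erythroid enzyme Alas2 had 0 counts. Of haem breakdown and transport 9 of 10 were detected, led by Slc48a1, a haem transporter of endosomes (96.1 ± 11.8 CPM), Pgrmc1 (93.3 ± 3.58 CPM) and Hmox2 (51.5 ± 1.37 CPM); the inducible oxygenase Hmox1 had 22.6, 21.5 and 19.3 CPM, and Mfsd7c, an older symbol of Flvcr2, had 0 counts. Hmox1 falls outside the rule for named genes and was chosen after its values were seen.

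Of 5 further messages known in some species to carry an iron-responsive element, 3 were detected. Sdhb, whose element is known from Drosophila, had 128 ± 4.39 CPM and Cdc14a 20.8 ± 1.44 CPM (SD, n = 3 each). The element search found matches in untranslated regions of Cdc14a (with 1 mispair) and Alas2, and none in those of mouse Sdhb and Epas1. Epas1 had 1 count in all.

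**Figure D5:**
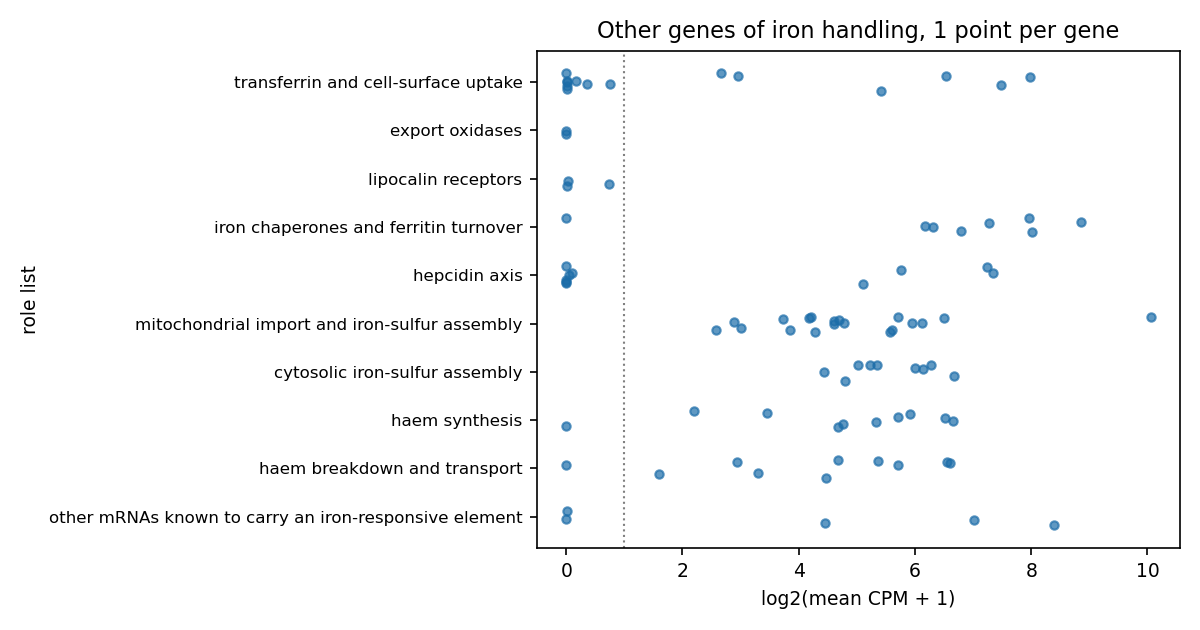
Mean level of 89 other genes of iron handling by role, as log2(mean CPM + 1), with 1 point per gene (vertical scatter within a list has no meaning, Alas2 stands in 2 lists, and the dotted line marks 1 CPM). Both cluster assembly lists lie wholly right of the line, and the 2 export oxidases lie at 0.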

How the data were processed

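The authors deposited 1 table of raw read counts per gene symbol, whole numbers in 3 columns, not normalized. The tools CASAVA 1.7, BWA, STAR and HTSeq and the build mm9 are named, with no role, per the submitters' processing notes; the libraries were stranded and poly(A)-selected, per the labels' protocols. The sources used here give neither the annotation nor the strand setting nor how reads matching several genes were treated. Column names match no sample title, so columns were assigned to the group as a whole. Whether the 3 libraries are from separate cultures is not said, and p-values measure only the spread between these samples, which may be technical.

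CPM was computed on column totals. Lengths come from GENCODE M21 (GRCm38, another build than mm9, so no coordinates are given), which matched 31395 of 34591 symbols (90.8%). Ratios between genes had 0.5 counts added to each count, except 3 pairs with a gene at 0 to 2 counts, which used summed counts or the floor; that choice was made after seeing the data. Intervals are exact 95% (Clopper-Pearson), the limit for 0 counts is 3 counts, and both cover counting error only. Spread was tested with edgeR 4.0.16 (R 4.3.3, limma 3.58.1, TMM, intercept only) and, as an alternative, DESeq2 1.42.0. The edgeR and Poisson tests were tried on simulated data, with the outcome not reported here. How small a difference they can find is not given, so a gene that did not pass may still have varied. Alternatives covered scaling, filter, prior, length and leaving out each library.

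The members and lists were chosen with earlier results of these data known. The rule named all members, the 3 most abundant genes of each other list and up to 2 at 0 counts, and the 5 genes nearest to the 3 most variable of the members at 1 CPM or more in every library; other genes named were chosen after their values were seen. A few genes that the rule names are not reported here.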

Additional observations from a re-analysis of the deposited data

How the results depend on the processing

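Another library scaling (TMM or DESeq2 size factors) kept 9 of 10 members and 66 of 89 other iron genes at 1 CPM or more. So did leaving out any library. No member's mean CPM moved by more than its SD, but with 3 libraries leaving 1 out cannot move a mean that far. The TMM and DESeq2 factors were 0.997 to 1.005, so rescaling could move the means only little. The shifts of the means are therefore no test. The number of members varying beyond counting noise (6) was 3 to 7 when a library was left out: 7 without C1 (36.8% of all genes), 3 without C2 (13.8%) and 4 without C3 (12.9%). The number passing the edgeR F test (0) was 2 without the low-count filter (Cp and Lcn2; 0.91% of all genes), 1 by DESeq2's outlier mark, 0 with a robust prior (where 0 members had an unadjusted p under 0.05) and 0 to 1 when a library was left out (0.39%, 0.196% and 0.0231% of all genes without C1, C2 and C3). Length mattered most. The members' median was 3.52 as log2(CPM per kilobase + 1), beside 1.95 over all genes with a count and a length. Without length correction, 6 of 10 members kept their place in the order, and the log2 ratios were 1.05 for Fth1 over Ftl1 (reversed), -1.23 for Aco1 over Ireb2, 7.75 for Tfrc over Slc40a1, -1.64 for Tfrc over Fth1 and -1.25 for Steap3 over Slc11a2. With the longest transcript they were -0.036, -0.64, 7.44, -2.89 and -1.48 for the same pairs and 3.46 for Tfrc over Slc11a2. With Ftl2 added to Ftl1, an alternative chosen after seeing the data, Fth1 over Ftl1 was -0.57. The lower bound of Slc40a1 over Heph was 11.1 to 30.1-fold when a library was left out; it is set by the shallow C1. No paired analysis was possible because there is only 1 group. Depth limits Slc40a1 (39 counts in C1) and Lcn2 (12 to 40 counts), for which differences between libraries as small as those of Tfrc were not detectable. Steap3 (320 counts in C1) ranged 1.07-fold over libraries, near the 1.08-fold of Tfrc, but did not exceed counting noise. Nor did Aco1 (1302 counts in C1, 1.05-fold).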
